A study of Mus musculus with 2 samples.

Results

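Interferon-stimulated genes (ISGs) are the genes that cells switch on when they sense interferons, and a list of 46 of them was followed across the cell classes and between the genotypes of this data set. The count tables listed 44 of the 46 among 32285 genes; Mx1 and Mx2 were not analysed here. Of the 44, 19 are led by type I interferon (Isg15, the IFIT and OAS families, Rsad2 and others), 9 are led by interferon-gamma (IFN-gamma; Irf1, the interferon-inducible GTPases and Cxcl9), and the others answer to both. Every one of the 44 had at least 1 unique molecular identifier (UMI, 1 captured transcript copy) in the cells analysed, and 33 had at least 100 UMIs in both libraries together.

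The cells were CD11b+ and CD11c+ myeloid cells sorted from colorectal polyps of C57BL6/J mice, labelled as 26 weeks old, in which azoxymethane (AOM), a carcinogen, and 1% dextran sodium sulfate (DSS) in 3 cycles, which injures the colonic epithelium, had brought on tumours. Polyps were taken 16 weeks after AOM. For WT, the wild type, 5 mice went into 1 library. The other pooled 4 mice without Clec7a, which encodes the fungal beta-glucan receptor Dectin-1 (Clec7a-/-). AOM and DSS were given to both genotypes, so no library of untreated mice stands beside them. Clec7a itself was not analysed here, and the labels were therefore not checked by the deleted gene. With 1 pooled library per genotype there is no replicate: a difference between genotypes cannot be told apart from one between pools, mice or library preparations, and no test was made. Every interval below is an exact 95% interval for counting error only, and every log2 ratio sets Clec7a-/- over WT.

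The cells kept were 2696 in the WT library, with 12283285 UMIs and a median of 3412.5 per cell, and 1999 in the Clec7a-/- library, with 7559096 UMIs and a median of 2671. They were grouped without using the ISGs, and classes were named from marker genes. The neutrophil-like class held 674 WT and 403 Clec7a-/- cells, the monocyte-like class 665 and 481, the macrophage-like class 528 and 293, and the dendritic cell-like (DC-like) class 361 and 563. Of the DC-like class, the share among all cells was 13.4% in WT (12.1 to 14.7) and 28.2% in Clec7a-/- (26.2 to 30.2). A cluster of 67 and 122 cells held all 10 T cell markers despite the CD11b and CD11c sort. A further cluster of 343 and 79 cells had neutrophil and monocyte markers at once and joined neither class, and 34 cells led by proliferation genes were left unnamed.

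As background, type I interferons signal through the receptor chains IFNAR1 and IFNAR2 and the kinases JAK1 and TYK2 to transcription factors that bind the interferon-stimulated response element (ISRE). IFN-gamma signals through IFNGR1 and IFNGR2 and acts on genes with a gamma-activated site (GAS). The products block viral RNA and its translation, sense foreign nucleic acids, attack pathogen-containing vacuoles, and, in the case of the chemokines CXCL9 and CXCL10, attract T cells that carry CXCR3. In the intestine, microbial products and cytokines keep a part of this programme on without viral infection.

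The promoters of the list are shown first, because they carry the elements through which the interferons act. A window from 250 bases before to 50 bases after the transcription start was available from RefSeq (GRCm38.p6) for 36 of the 44 members. The ISRE core, searched on both strands as GAAA, any 2 bases and GAAA (TTTC, any 2 bases and TTTC on the other strand), was in the window of 21 of the 36 members, against 3.99% of 27025 genes. It was in 8 of 15 type I-led members and in 6 of 9 IFN-gamma-led members, so the ISRE letters alone did not part the sublists. The GAS, searched as TTC, any 3 bases and GAA, which reads the same on both strands, was in 9 of 36 members, against 9.55% of all genes. Those with a GAS were 2 of 15 type I-led and 4 of 9 IFN-gamma-led members. The stretches below, printed 5′ to 3′ on the strand of the gene with the ISRE and GAS matches in capitals, belong to the members that the results turn on. Overlapping matches run together.
Isg15, chr4:156200850-156200921, minus strand, 3 overlapping ISRE cores: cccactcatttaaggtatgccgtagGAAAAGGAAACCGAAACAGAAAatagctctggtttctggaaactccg
Ifit1, chr19:34640760-34640838, plus strand, 2 ISRE cores: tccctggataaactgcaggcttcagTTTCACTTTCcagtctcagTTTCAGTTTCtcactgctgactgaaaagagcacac
Ifit3, chr19:34583348-34583441, plus strand, 2 ISRE cores: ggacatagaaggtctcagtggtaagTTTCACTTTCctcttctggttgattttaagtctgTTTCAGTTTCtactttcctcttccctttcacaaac
Rsad2, chr12:26456538-26456597, minus strand, 1 ISRE core: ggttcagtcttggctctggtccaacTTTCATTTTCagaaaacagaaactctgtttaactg
Cxcl10, chr5:92349068-92349127, minus strand, 1 ISRE core: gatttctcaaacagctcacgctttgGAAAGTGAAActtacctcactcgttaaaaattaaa
Gbp2, chr3:142620579-142620638, plus strand, 1 ISRE core: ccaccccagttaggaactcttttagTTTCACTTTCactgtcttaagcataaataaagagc
Bst2, chr8:71537562-71537633, minus strand, 2 ISRE cores and 1 GAS: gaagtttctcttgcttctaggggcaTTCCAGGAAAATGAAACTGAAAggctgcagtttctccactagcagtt
Igtp, chr11:58199486-58199555, plus strand, 1 ISRE core and 1 GAS: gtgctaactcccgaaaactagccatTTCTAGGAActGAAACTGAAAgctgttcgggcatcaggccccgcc
Irf1, chr11:53769899-53769957, plus strand, 1 GAS: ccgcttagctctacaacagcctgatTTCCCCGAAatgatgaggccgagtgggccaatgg

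The 94 bases printed for Ifit3 are repeated letter for letter upstream of its neighbour Ifit3b, at chr19:34607744-34607837. These 2 genes also share transcript sequence, and 31.7% of the 100-base stretches of Ifit3 occur in another gene, so counts of the pair cannot be assigned with certainty. The window of Cxcl9 held neither set of letters. A match describes the letters in the window and shows no binding.

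Levels of the list were first compared across the cell classes. Levels are UMIs of the members scaled to the UMIs of the same cells, as counts per 1000000 UMIs (CPM). All 44 members together stood at 1329 CPM (1308 to 1349) in the WT library and 1437 CPM (1410 to 1464) in the Clec7a-/- library. Among the 4 myeloid classes the neutrophil-like cells had the highest summed level, 1512 CPM (1454 to 1570) in WT and 1800 CPM (1682 to 1924) in Clec7a-/-. The DC-like cells followed with 1442 CPM (1388 to 1498) and 1545 CPM (1500 to 1592). In WT these 2 intervals overlapped, so the order of neutrophil-like and DC-like cells was not clear of counting error there. The WT levels also moved with the processing settings. Under several alternatives given below, the WT monocyte-like level was above the neutrophil-like level given here. The monocyte-like cells stood at 1284 CPM (1239 to 1330) and 1181 CPM (1127 to 1236.5), and the macrophage-like cells at 1156 CPM (1124 to 1189) and 1297 CPM (1247 to 1348), so that the last places were exchanged between the libraries. The T cell-like cells were above all of them, at 2587 CPM (2354 to 2837) and 2468 CPM (2274 to 2675), and 1508 and 1548 CPM of that came from Ly6e alone.

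**Figure D1:**
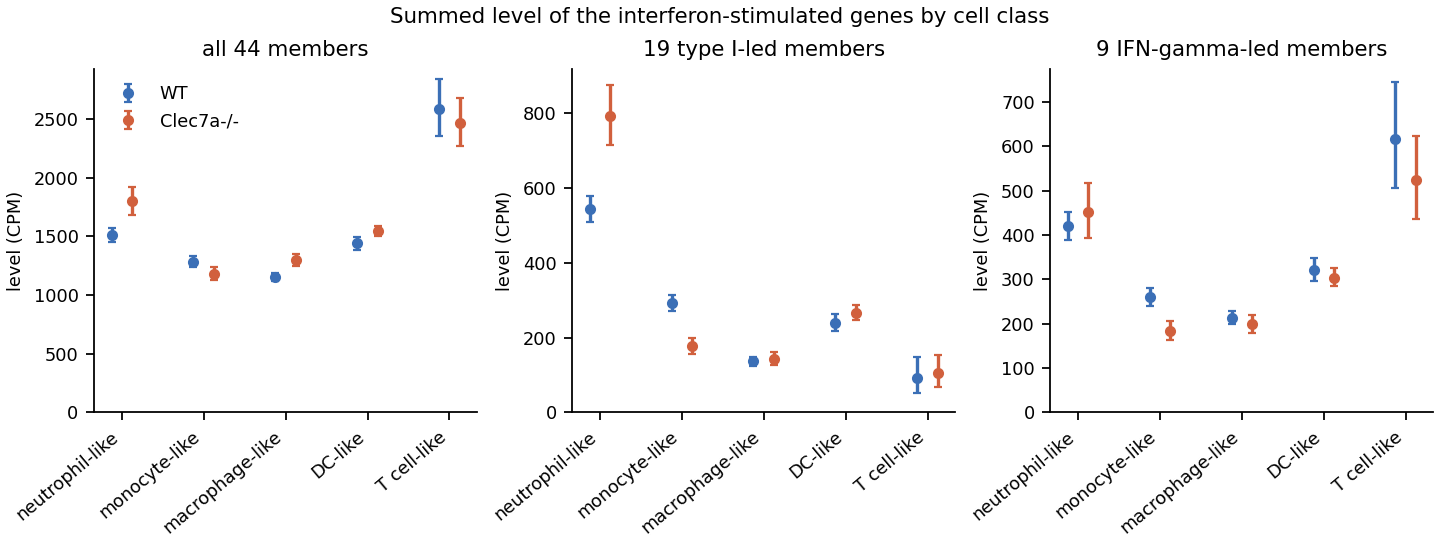
Summed level in CPM (y axis) of all members, the type I-led members and the IFN-gamma-led members (panels) in 5 cell classes (x axis), for the WT and Clec7a-/- libraries; points are levels and bars exact 95% intervals for counting error. The type I-led members were higher in Clec7a-/- than in WT neutrophil-like cells (791.1 against 543.5 CPM) and lower in monocyte-like cells (177.0 against 292.5 CPM).

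A few genes made up much of these sums. Ly6e, which encodes a membrane protein that restricts coronavirus entry and is also a lymphocyte surface antigen, gave 29.7% of the UMIs of the list. Irf1 gave 7.74%, Bst2 7.08%, Irf9 5.79%, Gbp2 4.75% and Isg15 4.47%. The sublists and single members are therefore given separately.

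The leading class differed between ISGs. Of the 33 members with at least 100 UMIs, 26 had their highest level in the same class in both libraries, 12 of them in neutrophil-like, 10 in DC-like, 4 in macrophage-like and 0 in monocyte-like cells. Bst2, which encodes tetherin, a protein that holds budding virus particles on the cell surface, was highest in macrophage-like cells: 192 and 233 CPM in WT and Clec7a-/- macrophage-like cells, against 6.89 and 10.5 CPM in neutrophil-like cells. It was detected in 333 of 528 and 174 of 293 macrophage-like barcodes (63.1% and 59.4%) and in 11 of 674 and 5 of 403 neutrophil-like barcodes (1.63% and 1.24%); the T cell-like barcodes gave 8.96% and 6.56%. After every cell was thinned to 1000 UMIs the macrophage-like shares were 15.3% and 18.8% and the T cell-like shares 1.79% and 2.17%. The median depths differ between classes, 7823.5 and 6133 UMIs in macrophage-like, 2503.5 and 1051 in neutrophil-like and 2058 and 1570.5 in T cell-like cells.

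Neutrophil-like cells led for the OAS-like enzyme Oasl2, with 165 CPM in WT and 182 CPM in Clec7a-/- against 13.7 to 32.5 CPM in the other myeloid classes. They also led for Isg20, an exonuclease that degrades single-stranded RNA, with 147 and 119 CPM against 3.31 to 11.8 CPM. Oas3 showed the same pattern, at 45.96 and 54.42 CPM in neutrophil-like cells and at most 3.76 CPM in the other 3 classes. DC-like cells led for Ifi205, a DNA sensor of the PYHIN family, with 125 and 113 CPM, for Oasl1, a relative of the OAS enzymes that lacks their activity, with 109 and 107 CPM, and for Usp18, the protease that removes ISG15 from its targets and restrains the type I receptor, with 42.9 and 57.2 CPM. The classes that led for these genes were present in unlike proportions in the libraries.

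**Figure D2:**
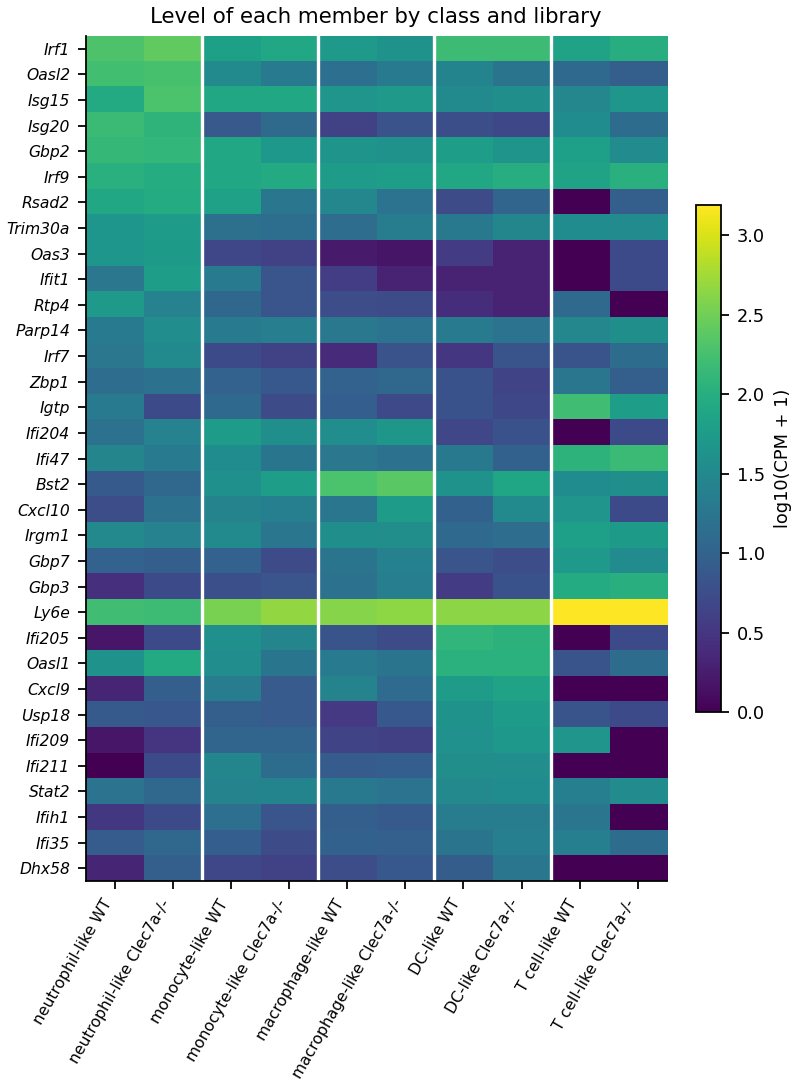
Level of each of the 33 members with at least 100 UMIs (rows) by class and library (columns), as log10(CPM + 1) on a colour scale. Along its row and among the 4 myeloid classes, the neutrophil-like columns are brightest for Oasl2, Isg20 and Oas3, the DC-like columns for Ifi205, Oasl1 and Usp18, and the macrophage-like columns for Bst2.

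Over all cells the 2 libraries differed little in the list as a whole and more in single members. The log2 ratio of the summed list was 0.11 (0.08 to 0.15). That of the type I-led members was -0.14 (-0.23 to -0.06) and that of the IFN-gamma-led members -0.15 (-0.23 to -0.07). Of the 33 members with at least 100 UMIs, 2 were at least 2-fold higher in Clec7a-/- and 4 at least 2-fold lower, while 2.42% and 1.71% of the 8470 genes with that many UMIs passed the same sizes (4.13% either way). The counting interval lay above 0 for 11 members and below 0 for 11, against 35.9% and 17.4% of all genes. The median log2 ratio was 0.11 over the 33 members and 0.13 over all genes. Scaling by edgeR's trimmed mean of M values (TMM) shifted every log2 ratio over all cells by -0.17, which turned the ratio of the summed list to -0.05.

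The members at least 2-fold higher were Usp18, with 137 UMIs or 11.2 CPM in WT and 192 UMIs or 25.4 CPM in Clec7a-/- (log2 ratio 1.19, 0.86 to 1.51), and Dhx58, a helper of the RNA sensors, with 4.40 and 9.26 CPM (1.07, 0.54 to 1.61). Next came Ifi209 with 11.0 and 22.0 CPM (0.999, 0.66 to 1.34), Cxcl10 with 18.5 and 34.0 CPM (0.88, 0.62 to 1.14) and Ifi205 with 32.2 and 50.01 CPM (0.63, 0.43 to 0.84). Usp18, Dhx58, Ifi209 and Ifi205 are genes whose highest level was in DC-like cells. At the other end stood Rtp4, a zinc finger protein that restricts flaviviruses, with 184 UMIs or 14.98 CPM in WT and 37 UMIs or 4.89 CPM in Clec7a-/- (-1.61, -2.16 to -1.10). Igtp, one of the interferon-inducible GTPases, had 12.7 and 5.69 CPM (-1.16, -1.68 to -0.66). Rsad2, which encodes viperin, an enzyme that makes a chain-terminating nucleotide, had 38.0 and 18.0 CPM (-1.08, -1.37 to -0.80). Isg20 had 30.04 and 14.95 CPM (-1.01, -1.32 to -0.70) and Oas3 9.93 and 5.29 CPM (-0.91, -1.46 to -0.38).

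When the 15 clusters were given the same weights in both libraries, most of these differences shrank. The weights count cells, whereas the summed ratios count UMIs, so the shift joins equal proportions with that change of weight. The weighted values have no interval. With every cluster weighted by its mean share of cells, an alternative added after the data were seen, 1 of the 33 members was at least 2-fold higher and 1 at least 2-fold lower, and 8 changed sign. The log2 ratio of Usp18 went from 1.19 to 0.19, that of Ifi209 from 0.999 to 0.07 and that of Ifi205 from 0.63 to -0.17. Isg20 went from -1.01 to 0.33 and Oas3 from -0.91 to 0.24. These genes had their highest levels in the DC-like or neutrophil-like classes, whose shares of all UMIs went from 14.99% in WT to 37.3% in Clec7a-/- and from 14.2% to 6.32%. The shares of cells of these 2 classes went from 13.4% to 28.2% and from 25% to 20.2%. Igtp went from -1.16 to -1.51, a larger difference, and Rsad2 from -1.08 to -0.39. Dhx58 stood at 0.96, Cxcl10 at 0.67 and Rtp4 at -0.69. Irf7, the transcription factor that amplifies type I interferon production, with 5.05 and 7.01 CPM, went from 0.47 (-0.08 to 1.03) to 1.01. Dhx58 was highest in DC-like cells in both libraries, and Rtp4 and Irf7 in neutrophil-like cells. Yet the ratio of Dhx58 moved little from 1.07, and that of Irf7 grew. What the class shares contributed to these shifts was not tested.

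**Figure D3:**
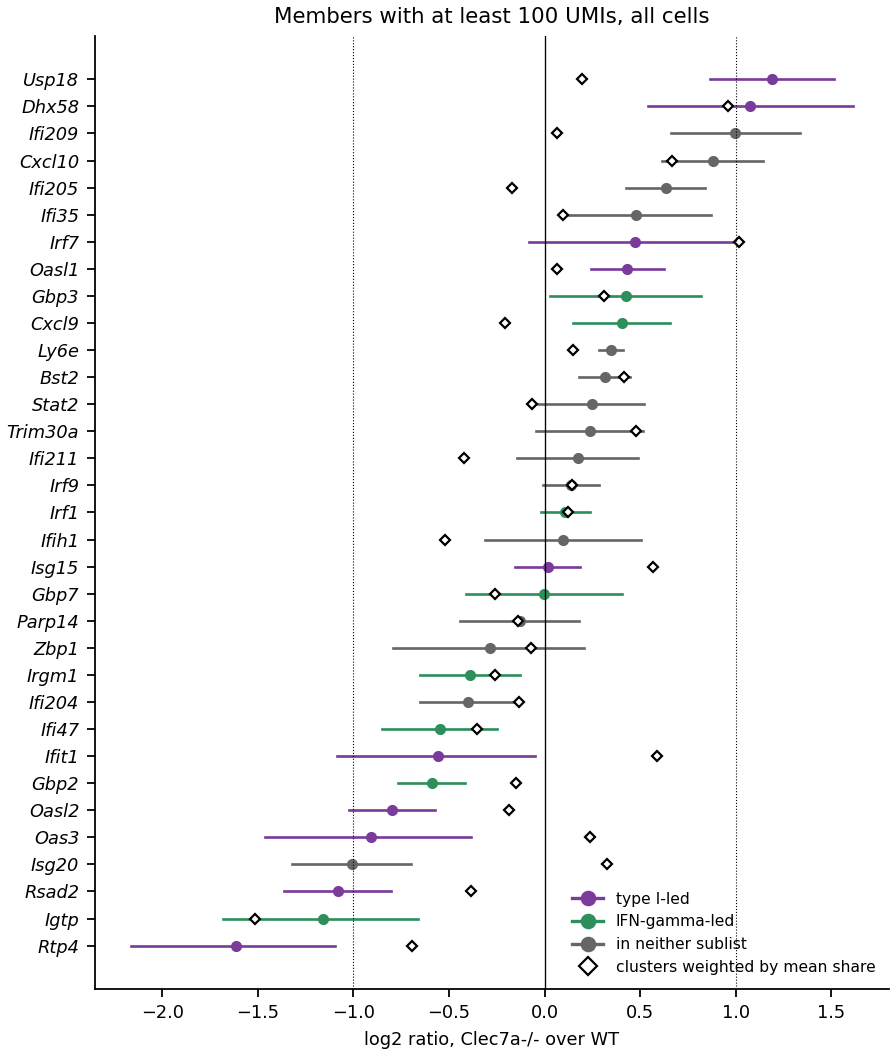
Log2 ratio of Clec7a-/- over WT (x axis) for the 33 members with at least 100 UMIs (rows), all cells; circles are ratios of summed UMIs, bars exact 95% intervals for counting error, and diamonds the ratio with the clusters weighted by their mean share of cells. The diamonds of Usp18, Ifi209, Isg20 and Oas3 lie between 0.07 and 0.33, and that of Igtp at -1.51.

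Within classes, the differences are given by role. Counts are of members with at least 100 UMIs in the class. In neutrophil-like cells 2 of 11 were at least 2-fold higher in Clec7a-/- (Isg15 and Oasl1) and 0 lower, against 2.44% and 1.89% of all genes (4.34% either way), and 3 intervals lay above 0 and 0 below, against 20.4% and 18.6%. In monocyte-like cells 0 of 14 were higher and 3 lower (Rsad2, Oasl1 and Ifi47), against 0.27% and 0.608% (0.879% either way), and 2 intervals lay above 0 and 7 below, against 14.4% and 12.0%. In macrophage-like cells 1 of 17 was higher (Cxcl10) and 1 lower (Cxcl9), against 0.295% and 0.624% (0.919% either way), and 6 intervals lay above 0 and 2 below, against 9.57% and 11.6%. In DC-like cells 1 of 15 was higher (Cxcl10) and 0 lower, against 0.473% and 0.638% (1.11% either way), and 4 intervals lay above 0 and 1 below, against 13.5% and 13%. The median log2 ratio of the members was -0.54 in monocyte-like cells, where that of all genes was 0.03, and lay between -0.03 and 0.23 in the other 3 classes.

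Isg15 (ENSMUSG00000035692, chr4:156199424-156200818, minus strand, GRCm38) encodes the ubiquitin-like modifier that is conjugated to proteins in interferon-treated cells. Over all cells it was nearly level as summed, at 61.0 CPM (56.7 to 65.5) in WT and 61.6 CPM (56.2 to 67.5) in Clec7a-/-. With the clusters weighted it was 63.2 and 93.8 CPM, a log2 ratio of 0.57. In neutrophil-like cells it had 155 UMIs or 89.05 CPM in WT and 93 UMIs or 195 CPM in Clec7a-/-, a log2 ratio of 1.13 (0.74 to 1.51). The class was made of its clusters in unlike parts, with 490 WT and 81 Clec7a-/- cells in cluster 1, which expresses Ngp, Retnlg and Lcn2, and 184 and 322 cells in cluster 3, which expresses Prok2 and Csf1. Isg15 was higher in both, in cluster 1 with 94.8 and 199 CPM (1.07, 0.45 to 1.65), and in cluster 3 with 53.4 and 193 CPM (1.85, 0.97 to 2.84). The UMIs were spread over 118 of 674 and 75 of 403 barcodes (17.5% and 18.6%), no barcode held more than 5, and the ratio without the leading barcode of each library was 1.11. After thinning to 1000 UMIs the shares were 8% of 600 and 13.8% of 217 barcodes, and those of T cell-like barcodes 1.79% and 4.35%. Thinning left out 74 WT and 186 Clec7a-/- neutrophil-like cells of lower depth, so these shares cover unlike parts of the class. In the same neutrophil-like cells the 12 neutrophil markers summed to 44511 CPM in WT and 31280 CPM in Clec7a-/-, and the 12 monocyte markers to 5265 and 7091 CPM; their part in the result was not tested. In the other classes the intervals of the Isg15 ratio held 0: monocyte-like -0.01 (-0.35 to 0.33), macrophage-like 0.21 (-0.15 to 0.56) and DC-like 0.23 (-0.24 to 0.72). Within the monocyte-like class the clusters went apart, with 47.2 and 87.3 CPM in cluster 0 (0.89, 0.41 to 1.37) and 131 and 63.9 CPM in cluster 2 (-1.04, -1.62 to -0.49). Cluster 0 is led by Ccl24 and Arg1 and cluster 2 by Ly6c2 and F13a1.

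The IFIT proteins bind viral RNA that lacks host cap modifications. Their 4 genes were rare, with 146 UMIs in WT and 77 in Clec7a-/-, and only Ifit1 had at least 100 UMIs. Ifit1 was higher in Clec7a-/- neutrophil-like cells, with 30 UMIs or 17.2 CPM in WT and 29 UMIs or 60.7 CPM in Clec7a-/- (1.82, 1.03 to 2.60), and lower in Clec7a-/- monocyte-like cells, with 46 UMIs or 19.2 CPM and 9 UMIs or 5.90 CPM (-1.70, -2.92 to -0.65). Both values rested on few barcodes. In WT monocyte-like cells the 46 UMIs lay in 5 barcodes, 1 of which held 20, and in Clec7a-/- neutrophil-like cells 1 of 11 barcodes held 13 of the 29; without the leading barcode of each library the neutrophil-like ratio was 1.17 (0.17 to 2.12). Ifit3, below that minimum, had 24 and 13 UMIs, or 1.95 and 1.72 CPM (-0.18, -1.28 to 0.85).

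Among the OAS family, most of whose members make a messenger nucleotide that activates RNase L, Oasl1 was 41.9 and 87.9 CPM in neutrophil-like cells (73 and 42 UMIs; 1.07, 0.48 to 1.63) and 35.9 and 16.4 CPM in monocyte-like cells (86 and 25 UMIs; -1.13, -1.84 to -0.47). In neutrophil-like clusters 1 and 3 its ratios were 0.80 (-0.28 to 1.73) and 1.21 (0.14 to 2.40), so only cluster 3 was clear of counting error by itself. In DC-like cells, where it was highest, it did not differ beyond counting error (-0.04, -0.30 to 0.23). Oasl2 did not differ beyond counting error in neutrophil-like cells (0.14, -0.22 to 0.49) and was lower in Clec7a-/- monocyte-like cells (-0.68, -1.33 to -0.06) and DC-like cells (-0.74, -1.35 to -0.12; -0.62, -1.28 to 0.04 without the leading barcodes).

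Of the other antiviral effectors, Rsad2 (ENSMUSG00000020641, chr12:26442746-26456452, minus strand) had 156 UMIs or 65.1 CPM in WT and 26 UMIs or 17.0 CPM in Clec7a-/- monocyte-like cells (-1.93, -2.59 to -1.33), and 121 UMIs or 28.6 CPM and 30 UMIs or 15.2 CPM in macrophage-like cells (-0.91, -1.54 to -0.33). These UMIs sat in a handful of cells: the 156 lay in 19 of 665 WT barcodes, with 49 and 33 in the leading ones, and the 121 in 19 of 528, with 50 and 44. Without the leading barcode of each library the macrophage-like ratio was -0.46 (-1.20 to 0.22). The macrophage-like ratio changed sign under other processing settings. It was 0.42 at a mitochondrial limit of 10%, which kept 5849 cells in place of 4695. With 10 components it was 1.204, and at a higher resolution 1.58. Bst2 was higher in Clec7a-/- in 3 of the 4 classes, by 0.64 (0.20 to 1.07) in monocyte-like, 0.28 (0.11 to 0.44) in macrophage-like and 0.79 (0.40 to 1.18) in DC-like cells, and no barcode held more than 20 of its UMIs. Ly6e was 354 and 469 CPM in monocyte-like cells (0.41, 0.26 to 0.55) and 404 and 447 CPM in macrophage-like cells (0.14, 0.02 to 0.26), and close to level in DC-like cells (0.02, -0.11 to 0.15). Rtp4 in neutrophil-like cells, its leading class, was 49.98 and 25.1 CPM from 87 and 12 UMIs (-0.99, -2.00 to -0.12).

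None of the 4 transcription factors of the list, Irf1, Irf7, Irf9 and Stat2, had an interval clear of 0 over all cells, although Irf7 was the 1 member at least 2-fold higher with the clusters weighted (1.01). Irf1, the factor induced first by IFN-gamma, was 103 and 111 CPM (0.11, -0.02 to 0.24) over all cells and highest in neutrophil-like cells, at 196 and 255 CPM (0.38, 0.07 to 0.68), an interval that held 0 without the leading barcode of each library (0.30, -0.02 to 0.61). In DC-like cells it stood at 153 CPM in both libraries. Among the sensors, Dhx58 was 7.60 and 16.7 CPM in DC-like cells (14 and 47 UMIs; 1.13, 0.25 to 2.11). The PYHIN gene Ifi204 was 35.2 and 47.5 CPM in macrophage-like cells (0.43, 0.05 to 0.82; 0.34, -0.06 to 0.74 without the leading barcodes) and 55.9 and 37.4 CPM in monocyte-like cells (-0.58, -1.05 to -0.12). Ifi204 shares 10.7% of its 100-base stretches with other genes of the family, and Ifi211 56.9%, so single PYHIN values are uncertain.

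The interferon-inducible GTPases, which assemble on vacuoles that hold intracellular pathogens, were lower in Clec7a-/- as a group over all cells: 169 CPM (161 to 176) in WT and 123 CPM (116 to 132) in Clec7a-/-, and 4 of the 6 genes with at least 100 UMIs had an interval below 0 and 1 above, against 17.4% and 35.9% of all genes. With the clusters weighted the ratio of Gbp2 went from -0.59 to -0.15, and those of Igtp, Irgm1, Ifi47 and Gbp7 were -1.51, -0.26, -0.35 and -0.26. Gbp3 went the other way, at 0.43 as summed and 0.31 with the clusters weighted. The difference was widest in monocyte-like cells, with 175 and 98.3 CPM (-0.83, -1.11 to -0.56), and in macrophage-like cells the group did not differ beyond counting error (0.07, -0.14 to 0.28). Gbp2 was 80.5 and 49.2 CPM in monocyte-like cells (-0.71, -1.12 to -0.32) and 132 and 128 CPM in neutrophil-like cells (-0.04, -0.48 to 0.37). Igtp was lower in monocyte-like cells (-1.30, -2.74 to -0.06) and in T cell-like cells, with 160 and 58.3 CPM from 28 and 14 UMIs (-1.46, -2.50 to -0.48). By cluster, the interval of Igtp lay below 0 in 1 of 2 macrophage-like clusters. It did so in 0 of 2 neutrophil-like, 0 of 2 monocyte-like and 0 of 3 DC-like clusters. Without the leading barcode of each library the ratio of Igtp was -2.94 (-8.29 to -0.34) in neutrophil-like cells, from 28 UMIs in WT and only 1 in Clec7a-/-. In macrophage-like cells it was then -1.43 (-3.16 to -0.04), from 29 and 5 UMIs, and in DC-like cells -0.43 (-2.09 to 1.27). Leaving out a barcode can take a large part of such small counts, so these values are uncertain. Igtp overlaps Irgm2 on the same strand, so reads of the pair may be mixed.

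The chemokine Cxcl10 (ENSMUSG00000034855, chr5:92346638-92348889, minus strand) was higher in Clec7a-/- in both macrophage-like and DC-like cells. In macrophage-like cells it had 72 UMIs or 17.0 CPM in WT and 113 UMIs or 57.2 CPM in Clec7a-/- (1.75, 1.31 to 2.20). In DC-like cells it had 16 UMIs or 8.69 CPM and 91 UMIs or 32.3 CPM (1.89, 1.12 to 2.76). It was detected in 25 of 528 and 28 of 293 macrophage-like barcodes (4.73% and 9.56%) and in 10 of 361 and 27 of 563 DC-like barcodes (2.77% and 4.80%), with T cell-like shares of 1.49% and 0.82%. After thinning to 1000 UMIs the macrophage-like shares were 1.59% and 3.99% and the T cell-like shares 1.79%, from 1 of 56 cells, and 0 of 92, so the WT macrophage-like share was no higher than that of T cell-like cells. The thinned DC-like shares were 0 of 335 barcodes in WT, which allows up to 0.896%, and 2.82% in Clec7a-/-. The interval lay above 0 in each of the 5 macrophage-like and DC-like clusters, with log2 ratios of 2.21 (1.58 to 2.88) in cluster 4, 1.09 (0.41 to 1.75) in cluster 6, 2.32 (0.60 to 4.70) in cluster 7, 1.67 (0.58 to 2.91) in cluster 8 and 2.27 (0.79 to 4.23) in cluster 9. Without the leading barcode of each library, which held 10 and 28 UMIs, the macrophage-like ratio was 1.56 (1.07 to 2.05). At a mitochondrial limit of 10% the ratio was 1.39 in macrophage-like cells but 0.35 (-0.51 to 1.29) in DC-like cells. The summed macrophage markers were also higher there, at 15970 CPM in WT and 22148 CPM in Clec7a-/-, while the 18 DC markers stood at 585.9 and 588.7 CPM and the 10 T cell markers at 8.74 and 26.8 CPM; their part in the result was not tested. In monocyte-like cells as a class Cxcl10 did not differ beyond counting error (-0.15, -0.79 to 0.47), but in 1 of their 2 clusters the interval lay below 0.

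Its neighbour on chromosome 5, Cxcl9 (ENSMUSG00000029417, chr5:92321347-92328079, minus strand), which is induced mainly by IFN-gamma, was 23.6 and 31.2 CPM over all cells (0.40, 0.15 to 0.66), with unlike values in the classes. In macrophage-like cells it was 26.0 and 12.1 CPM (110 and 24 UMIs; -1.10, -1.80 to -0.45), and a single WT barcode held 51 of the 110 UMIs; without the leading barcode of each library the ratio was -0.61 (-1.46 to 0.17). It was 0.75 when cells with 500 to 6000 detected genes were kept. In monocyte-like cells it was 21.3 and 7.21 CPM (51 and 11 UMIs, in 15 and 4 barcodes; -1.56, -2.65 to -0.60), and in DC-like cells, its leading class, 55.4 and 68.2 CPM (0.30, -0.05 to 0.66). Cluster 9, the DC-like cluster with Clec9a and Xcr1, stood apart with 41.6 and 106 CPM (27 and 121 UMIs; 1.35, 0.74 to 2.01). Without the leading barcode of each library the ratio in DC-like cells as a class was 0.16 (-0.22 to 0.55). That value was not computed for cluster 9 by itself.

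**Figure D4:**
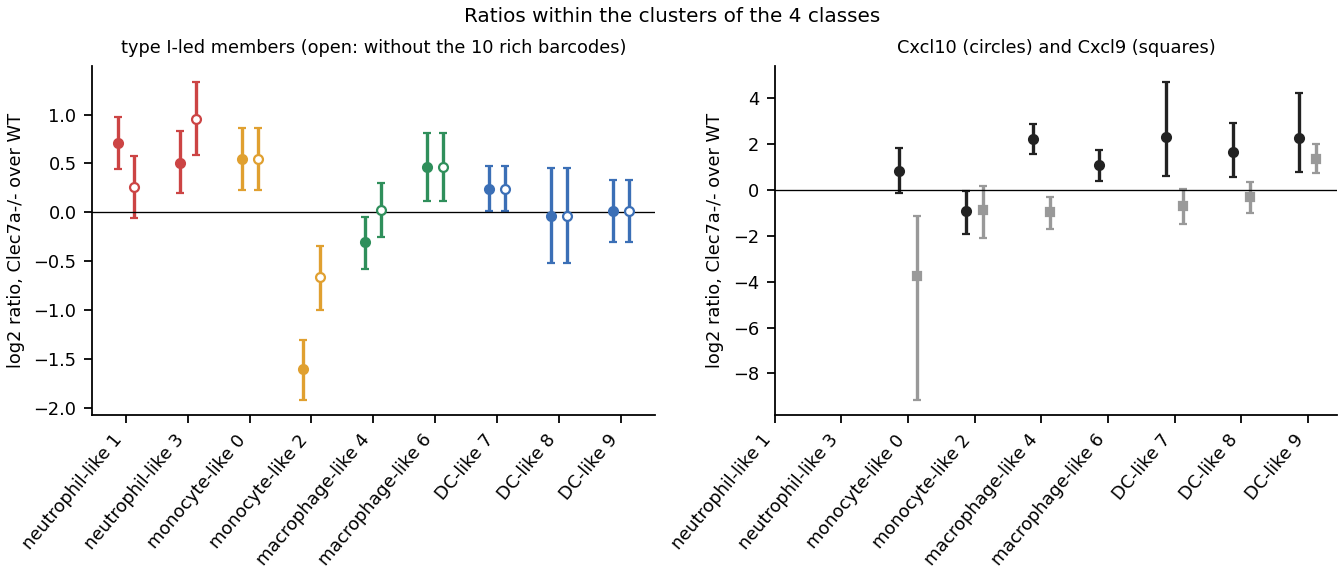
Log2 ratio of Clec7a-/- over WT (y axis) in each cluster of the 4 classes (x axis), for the summed type I-led members (left; open points leave out the 10 barcodes rich in them) and for Cxcl10 (right, circles) and Cxcl9 (right, squares); bars are exact 95% intervals for counting error, and on the right points with fewer than 20 UMIs or with a library at 0 are left out. Cxcl10 lies above 0 in all 5 macrophage-like and DC-like clusters, and the type I-led members lie at 0.55 in cluster 0 and at -1.60 in cluster 2.

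The summed sublists went in unlike directions in the classes. The type I-led members had 946 UMIs in WT and 378 in Clec7a-/- neutrophil-like cells, 543.5 CPM (509.4 to 579.3) and 791.1 CPM (713.4 to 875.1), a log2 ratio of 0.54 (0.37 to 0.72). In monocyte-like cells they had 701 and 270 UMIs, 292.5 CPM (271.2 to 315.0) and 177.0 CPM (156.5 to 199.4), a log2 ratio of -0.72 (-0.93 to -0.52). In macrophage-like and DC-like cells the intervals held 0, at 0.08 (-0.13 to 0.29) and 0.15 (-0.02 to 0.33). The IFN-gamma-led members were lower in Clec7a-/- monocyte-like cells (-0.50, -0.71 to -0.29) and did not differ beyond counting error in neutrophil-like (0.11, -0.12 to 0.33), macrophage-like (-0.11, -0.28 to 0.07) and DC-like cells (-0.08, -0.23 to 0.08). The monocyte-like difference in the type I-led members came from 1 of its clusters: cluster 2 had 580.4 and 191.6 CPM (-1.60, -1.91 to -1.30), and cluster 0 had 115.3 and 168.5 CPM (0.55, 0.23 to 0.87). The size of the monocyte-like difference moved with the processing settings, and was between -1.52 and -1.36 under 5 of the other settings.

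Spread over single barcodes was then examined, since a pooled level can rest on a few cells. After each cell was thinned to 1000 UMIs, which left out 186 WT and 307 Clec7a-/- cells, the variance of the type I-led UMIs per cell was 4.97 times their mean in WT and 3.47 times in Clec7a-/-, where a Poisson count has a ratio of 1. The 5% of cells with most of them held 56.1% and 53.2% of the type I-led UMIs. For all members these shares were 28.6% and 27.7%. Among the 4 myeloid classes the unevenness was greatest in WT monocyte-like cells, where the top 5% held 77.9% of the type I-led UMIs and the variance was 11.2 times the mean, against 1.90 times in Clec7a-/- monocyte-like cells. In T cell-like cells the ratio of variance to mean was 0.96 and 0.93. The top 5% there held 100% and 71.4% of the type I-led UMIs, at means of 0.0536 and 0.0761 per cell.

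A few barcodes stood far above the rest. Barcodes in which type I-led members made up at least 1% of all UMIs, a limit set after the data were seen, numbered 8 of 2696 in WT (0.297%, 0.128 to 0.584) and 2 of 1999 in Clec7a-/- (0.10%, 0.0121 to 0.361). The intervals of these shares overlap. As their choice by this share entails, they held more of the type I-led UMIs, 430 of 3234 in WT (13.3%) and 62 of 1804 in Clec7a-/- (3.44%), than of all UMIs (0.188% and 0.0454%). Without them the variance was still 2.09 and 1.87 times the mean, and the top 5% of WT cells still held 48.5% of the type I-led UMIs. Near the limit, 2 barcodes of each library lay between 0.8% and 1%, and 1 WT barcode between 1% and 1.2%.

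The WT barcode with the highest share held 938 UMIs, of which 35 (3.73%) were type I-led, with 14 of Rsad2 and 11 of Ifit1. The next held 59 of 2074, with 20 of Ifit1 and 19 of Rsad2, and the third 95 of 3630, with 49 of Rsad2, 12 of Cmpk2 and 11 of Ifit1. Besides these 95, the third held 11 UMIs of Cxcl10, which is in neither sublist. Rsad2, Ifit1 and Cmpk2, a mitochondrial nucleotide kinase encoded beside Rsad2, are among the genes by which these barcodes were picked. In the Clec7a-/- library the first held 41 type I-led UMIs of 1713, with 13 of Ifit1 and 12 of Rsad2, and the other 21 of 1718, with 7 of Ifit3b and 7 of Ifit1. Besides the 41, the first held 8 UMIs of Isg20, which is in neither sublist. The 8 WT barcodes fell into monocyte-like cluster 2 (4 barcodes), the 2 neutrophil-like clusters (1 each), macrophage-like cluster 4 (1) and the mixed cluster (1), and both Clec7a-/- barcodes were neutrophil-like. None was among the 5% of barcodes with the highest Scrublet doublet scores. No cluster was led by ISGs, which had been left out of the features that drew the clusters. The IFN-gamma-led members, which the limit did not use, had between 3 and 18 UMIs in each of the 8 WT barcodes, 82 of 3625 in all (2.26%).

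**Figure D5:**
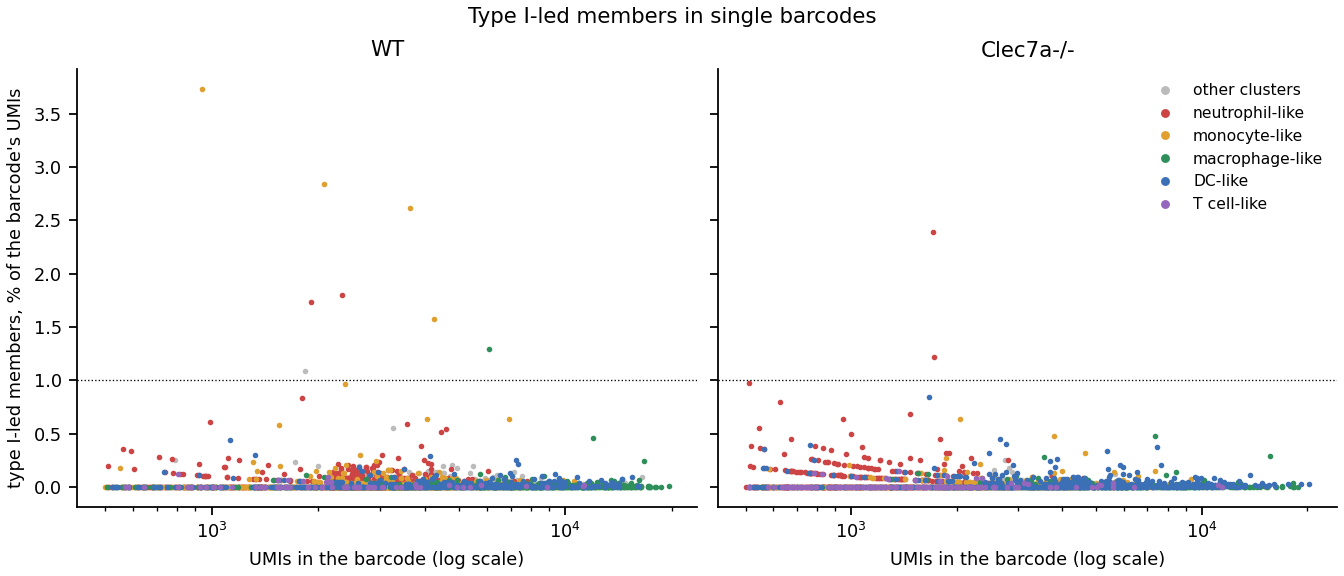
Share of the UMIs of a barcode held by type I-led members (y axis, percent) against all UMIs of the barcode (x axis, log scale), 1 point per cell coloured by class, WT left and Clec7a-/- right; the dotted line marks 1%. In WT 8 points and in Clec7a-/- 2 points lie above the line.

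The differences between the libraries were also computed without these barcodes. Since they were chosen for a high type I-led share, and more of them were WT, leaving them out lowers the WT levels of the type I-led members by construction, and the values below only describe how much of each level they held. The 4 in cluster 2 held 256 of the 701 type I-led UMIs of WT monocyte-like cells (36.5%). Without the 10 barcodes the monocyte-like ratio of the type I-led members was -0.08 (-0.30 to 0.15) in place of -0.72, and that of all members 0.07 (-0.02 to 0.15) in place of -0.12. For Rsad2, 209 of the 467 WT UMIs lay in them (44.8%), and without them its ratio was -0.36 (-0.68 to -0.04) over all cells and -0.01 (-0.78 to 0.73) in monocyte-like cells. For Ifit1 they held 55 of 110 and 20 of 46 UMIs, and its ratio in neutrophil-like cells without them was 0.29 (-0.99 to 1.42). In cluster 2 the type I-led members were still lower in Clec7a-/- without them (-0.66, -0.999 to -0.34).

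The same barcodes held unlike parts of single members. Of the WT UMIs they held 4.41% for Isg15, 0.275% for Bst2 and 0.133% for Ly6e. For Cmpk2 it was 62.5%, for Cxcl10 12.8% and for Igtp 9.62%, against 0.188% of all WT UMIs. Without them the neutrophil-like ratio was 1.12 (0.73 to 1.51) for Isg15, 1.10 (0.51 to 1.68) for Oasl1 and 0.41 (0.22 to 0.60) for the type I-led members together. In cluster 3 the type I-led ratio was 0.95 (0.58 to 1.33) without them, and in cluster 1, where 1 Clec7a-/- barcode held 30.4% of the 135 type I-led UMIs, it went from 0.71 (0.44 to 0.98) to 0.26 (-0.06 to 0.57). Cxcl10 in macrophage-like cells was 1.96 (1.503 to 2.43) without them.

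The rest of the pathway was read from 37 further genes. Of 10 interferon genes, 9 had no UMI in the cells kept, Ifnb1 and 5 Ifna genes among them, which allows up to 3 UMIs in each library; the tenth, Ifng, had 9 UMIs in WT and 2 in Clec7a-/-, of which 8 and 1 were in T cell-like cells. With at least 100 UMIs, 24 of the 37 could be compared over all cells, and 0 were 2-fold apart, against 4.13% of all genes; the interval lay above 0 for 11 and below for 6, against 35.9% and 17.4%. Over all cells, the IFN-gamma receptor chain Ifngr1 was 76.5 and 130 CPM (0.76, 0.63 to 0.89) and the kinase Tyk2 22.0 and 35.9 CPM (0.71, 0.46 to 0.95). Others went the other way: 2 of 5 receptor chains had an interval above 0 and 2 below, and of 3 kinases 2 lay above and 1 below. Within classes, among genes with at least 100 UMIs, 0 of 3 kinases had an interval above 0 in DC-like cells and 2 below. Elsewhere 0 lay below, and above 0 were 1 of 3 in macrophage-like and 1 of 2 each in monocyte-like and neutrophil-like cells. For receptor chains 0 of 5 lay above 0 in macrophage-like, 1 of 5 in DC-like and 2 of 5 in monocyte-like cells. In neutrophil-like cells it was 1 of 3, and 0 lay below 0 in any class. Over all cells the factor Irf8, which directs DC development, was 120 and 213 CPM (0.83, 0.72 to 0.93). Within DC-like cells, the myeloid class with the highest Irf8 level, Irf8 was 329 and 375 CPM (0.19, 0.04 to 0.33). Socs1, the inhibitor of the receptor kinases that interferon itself induces, was 81.6 and 172 CPM in neutrophil-like cells (142 and 82 UMIs, log2 ratio 1.07, 0.66 to 1.48). It was the 1 of 10 pathway genes with at least 100 UMIs there that was at least 2-fold higher, against 2.44% of all genes. Its levels in the single clusters were not computed, and the cause of the difference was not tested.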

How the data were processed

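The deposited values are UMI counts, whole and not normalized, 1 matrix of genes by barcodes for each library. The submitters' processing notes name Cell Ranger 2.1.1 and mm10; the protocol names the SeekOne MM kit, whereas the labels' description names 10x Genomics. The libraries held 15869215 UMIs in 3467 barcodes (WT) and 11808230 in 3080 (Clec7a-/-); 17 barcode sequences occurred in both, 6 of them among the cells kept.

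Following the study's methods, barcodes outside 200 to 4000 detected genes or above 5% mitochondrial UMIs were dropped. Clustering used R 4.3.3 and Seurat 5.3.0 (LogNormalize to 10000, 2000 variable features, 20 components, Louvain, resolution 0.8, the lowest in steps of 0.1 with at least 15 clusters), with the ISGs, other interferon-induced genes and sex-linked genes left out. A cluster was named where at least 35% of a class's markers were among its genes, a limit set after the data were seen, which left the 34 proliferating cells (0.519% of WT, 1.00% of Clec7a-/- cells) unnamed. No doublets were removed. Scrublet (scanpy 1.11.5) called 0 WT and 1 Clec7a-/- cell, so its calls were void, and the 5% with the highest scores were removed as an alternative.

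Levels are summed UMIs per 1000000 with exact Poisson intervals, and ratios have exact conditional binomial intervals (numpy 2.4.6, scipy 1.17.1, pandas 2.3.3; Python 3.11.15); shares have Clopper-Pearson intervals. These cover counting error only. A size of 2-fold was counted from 100 UMIs, with a pseudocount of 0.5. Tested on simulated counts for all cells, with 200 of 8469 genes changed, 96.5% of the changed genes came within 0.5 of the true log2 ratio. The simulated counts were Poisson counts, the model behind the intervals, so this checks the computation only. Member UMIs spread over cells more widely than Poisson counts, and the simulation left that spread out.

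Named were the 5 members with the highest and the 5 with the lowest ratio over all cells among those with 100 UMIs, Isg15, Ifit1, Ifit3, Rsad2, Irf7, Cxcl9, Cxcl10, Gbp2, Igtp, Irf1, Bst2 and Ly6e, the pathway genes, and the 8 outside genes most correlated with the list; other members were named after their values were seen. Members, lists and tests were chosen with earlier results of these data known. Alternatives changed the filters, components, features, resolution, thinning, minimum, pseudocount and scaling (TMM, edgeR 4.0.16); weighting by cluster, leaving out the mixed cluster, the rich barcodes or the leading barcode of a gene, and Scrublet scores were added after the data were seen. A pathway gene is not reported here by name.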

Additional observations from a re-analysis of the deposited data

Results flagged for a closer look

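Several ratios had opposite signs in different cell classes, with intervals for counting error clear of 0 on both sides. With 1 library per genotype the difference between classes was not tested. All members together had log2 ratios (Clec7a-/- over WT) of 0.25 in neutrophil-like, 0.17 in macrophage-like and 0.10 in DC-like cells and of -0.12 in monocyte-like cells. The type I-led members had 0.54 in neutrophil-like and -0.72 in monocyte-like cells. Ifit1 had 1.82 in neutrophil-like and -1.70 in monocyte-like cells, and Oasl1 had 1.07 and -1.13. Rsad2 had 1.19 in DC-like cells, from 8 and 28 UMIs, and -1.93 in monocyte-like and -0.91 in macrophage-like cells. Ifi204 had 0.43 in macrophage-like and -0.58 in monocyte-like cells. Without the 10 barcodes rich in type I-led members, the monocyte-like ratio was 0.07 for all members, -0.08 for the type I-led members and -0.01 for Rsad2, -0.88 (-1.60 to -0.21) for Oasl1 and 1.82 (-0.03 to 3.97), from 4 and 9 UMIs, for Ifit1, whose neutrophil-like ratio was then 0.29 (-0.99 to 1.42). These barcodes were chosen for a high type I-led share. Without the leading barcode of each library the macrophage-like interval held 0 for Ifi204 (0.34, -0.06 to 0.74) and Rsad2 (-0.46, -1.20 to 0.22), and the DC-like ratio of Rsad2 was 3.02 (1.02 to 6.15), from 2 and 25 UMIs.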

How the results depend on the processing

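With 1 library per genotype no library could be left out, and no paired analysis was possible because there was 1 library per genotype. Doublets could not be removed by calls, since Scrublet called 0 and 1 cells. Over 679 values repeated under the alternatives, 179 of 255 for lists and 360 of 424 for single genes stayed within the main counting interval. For counts of members and variance ratios, staying within 1.5-fold was taken instead. Among values whose main interval was clear of 0, 6 and 13 changed sign. Removing the Scrublet calls kept the same 4695 cells, so the values repeated under it could not move. Ratios are log2, Clec7a-/- over WT, levels are CPM in WT and Clec7a-/-, and the cause of each shift was not tested. The macrophage-like ratio of Cxcl10 lay between 1.23 and 1.96 and the neutrophil-like ratio of Isg15 between 0.98 and 1.17 under every alternative run for them. Depth limits the rare members: 11 of 44 had under 100 UMIs.

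The monocyte-like values moved most with the processing settings. The ratio of all members there was -0.30 with 10 components (levels 1702 and 1384), -0.30 with 30 components (1752 and 1425), -0.39 with 500 to 6000 detected genes (1775 and 1353), -0.47 with all variable features (1903 and 1375) and -0.36 without the top 5% of Scrublet scores (1766 and 1375). These WT monocyte-like levels were above the WT neutrophil-like level of the main setting, so the WT order given above is not firm. The order of the classes within each of these settings is not given here. With 500 to 6000 detected genes and without the top Scrublet scores, the cells kept also changed, to 4410 and 4469 from 4695. The type I-led ratio in monocyte-like cells was -1.38, -1.36, -1.40, -1.49 and -1.52 under these settings. In macrophage-like cells the type I-led ratio was 0.45 with 10 components, and the WT level of all members was 1195 with 30 components. In DC-like cells the levels were 1666 and 1744 with 30 components, 1512 and 1660 without the top Scrublet scores, and 1545 and 1629 at the resolution raised by 0.4, where the macrophage-like type I-led ratio was 0.70. With 500 to 6000 genes the IFN-gamma-led ratio over all cells was -0.060.

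With up to 10% mitochondrial UMIs the type I-led ratio over all cells was -0.026, 2 members were at least 2-fold lower, the macrophage-like ratio was 0.25 (Clec7a-/- level 1365) and 0.56 for the type I-led members, and the DC-like ratio turned to -0.033 (levels 1703 and 1665). With TMM scaling the ratio of all members over all cells turned to -0.053, the type I-led ratio was -0.31, the IFN-gamma-led ratio -0.32, the neutrophil-like ratio 0.12, and 1 member was at least 2-fold higher. As means of cell shares, the type I-led ratio over all cells turned to 0.023 and was -0.99 in monocyte-like cells, and in DC-like cells the ratios were 0.18 for all members and 0.47 for the type I-led members. With no UMI minimum 4 members were at least 2-fold higher. Without Ly6e and the next 2 members by UMIs the ratio over all cells turned to -0.040 and was -0.53 in monocyte-like cells.

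Without the 10 barcodes rich in type I-led members, the ratio over all cells was 0.16, the type I-led ratio turned to 0.012, 4 members were at least 2-fold higher, the neutrophil-like Clec7a-/- level was 1621, the monocyte-like ratio turned to 0.065 (WT level 1128) and was -0.076 for the type I-led members, and the macrophage-like type I-led ratio was 0.29. In the spread over barcodes, the top 5% of cells then held 24.7% and 25.8% of the member UMIs and 48.5% of the WT type I-led UMIs, and variance over mean was 2.28 in WT for all members and 2.09 and 1.87 for the type I-led members. Without thinning, variance over mean was 13.7 and 12.4 for all members and 13.4 and 6.87 for the type I-led members, of which the top 5% held 45.8% and 45.0%. Thinned to 2000 UMIs, the top 5% held 25.6% and 21.9% of the member UMIs and 48.0% and 47.4% of the type I-led UMIs, and variance over mean in WT was 6.44 and 8.88.

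Single genes that changed sign were Ifit1 over all cells (0.043), Rsad2 in macrophage-like (0.42) and Gbp2 in DC-like cells (0.29) with up to 10% mitochondrial UMIs, Cxcl9 in macrophage-like cells with 500 to 6000 genes (0.75), Rsad2 in macrophage-like cells with 10 components (1.204) and at the higher resolution (1.58), Gbp2 in DC-like cells with 30 components (0.053), and Ifit1 in monocyte-like cells without the rich barcodes (1.82, from 4 and 9 UMIs). Over all cells with the clusters weighted, they were Ifi205 (-0.17), Oas3 (0.24), Isg20 (0.33), Ifit1 (0.59) and Cxcl9 (-0.21).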

Other observations

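Outside the list, the genes whose levels went most with it over barcodes were those of antigen presentation and a further interferon-induced gene. Among 271 genes with at least 200 UMIs in every class and library, B2m, the light chain of MHC class I, had the highest mean Pearson's r with the summed list within class and library (0.22), followed by Ifitm3, which blocks virus entry at endosomes (0.20), and the MHC class I heavy chains H2-K1 (0.16) and H2-D1 (0.14). Cst3, Marcksl1, Nlrp3 and Lcp1 came next, at 0.13, 0.13, 0.13 and 0.12. Each mean is over 8 combinations of class and library, the correlations are weak, and they are descriptions over cells.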
